A study of Mus musculus with 4 samples.

Results

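Rbm5, Rbm6 and Rbm10 are 3 genes among the 56941 features of 4 mouse 10x libraries, taken by their symbols, and all 3 were present in every library. The libraries are bone marrow cells labelled MLL-AF9 from a Rbm5 knockout (KO), cells labelled MLL-AF9 from wild type (WT), cells labelled c-Kit+ from KO and cells labelled c-Kit+ from WT. MLL-AF9 is a fusion of a chromatin regulator with a transcription elongation factor that causes acute myeloid leukaemia, and the series describes primary leukaemia taken at the same endpoint after a first transplantation. The c-Kit+ cells are the normal counterpart, named for the receptor carried by blood stem and progenitor cells. The study asked what loss of Rbm5 does to the leukaemic expression programme. Each group was 1 library. Strain, age, the number of mice, the way Rbm5 was deleted, how MLL-AF9 was introduced and which cells came from the transplant recipient are not given in the sources used here.

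RBM5, RBM6 and RBM10 are RNA-binding proteins with RNA recognition motifs, zinc fingers and a G-patch, a short region that in RBM5 binds and stimulates the helicase DHX15. RBM5 is known from human cells as a component of early spliceosomes that changes exon choice in FAS, CASP2 and CFLAR transcripts. RBM10 is known in human cells to promote skipping of an exon of NUMB, and RBM6 acts on overlapping sets of exons. RBM5 and RBM6 lie in the human 3p21.3 region often lost in lung cancer, and RBM10 is X-linked.

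The positions of the genes set Rbm5 and Rbm6 together and Rbm10 apart. In GENCODE M21 (GRCm38) Rbm5 (ENSMUSG00000032580) spans chr9:107740371-107770996 on the minus strand, with 24 transcripts of which 7 are coding. Rbm6 (ENSMUSG00000032582) spans chr9:107773559-107873237 on the same strand, with 16 transcripts of which 6 are coding. The end of Rbm6 lies 2562 bases upstream of the start of Rbm5. Rbm10 (ENSMUSG00000031060) spans chrX:20617503-20650901 on the plus strand, with 7 transcripts of which 6 are coding. UMIs were counted per gene, so exons, introns and isoforms of a member were not separated.

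The 300 bases around each start site, 250 before and 50 after, are shown because Rbm5 and Rbm6 are neighbours with unlike KO over WT ratios below. Both were lower in the library labelled KO in MLL-AF9 cells, and only Rbm5 was higher in it in c-Kit+ cells. They come from RefSeq (GRCm38.p6), where all 3 members matched by symbol, and are given 5′ to 3′ on the strand of the gene, with capitals marking matches to the motifs searched. The Rbm5 window is chr9:107770953-107771252, the Rbm6 window chr9:107872770-107873069 and the Rbm10 window chrX:20617253-20617552.
Rbm5: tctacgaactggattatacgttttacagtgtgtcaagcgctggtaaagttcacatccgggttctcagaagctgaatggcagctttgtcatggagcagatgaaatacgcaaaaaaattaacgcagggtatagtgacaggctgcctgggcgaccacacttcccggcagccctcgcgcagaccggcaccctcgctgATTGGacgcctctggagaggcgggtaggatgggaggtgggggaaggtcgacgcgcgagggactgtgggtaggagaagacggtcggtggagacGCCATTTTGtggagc
Rbm6: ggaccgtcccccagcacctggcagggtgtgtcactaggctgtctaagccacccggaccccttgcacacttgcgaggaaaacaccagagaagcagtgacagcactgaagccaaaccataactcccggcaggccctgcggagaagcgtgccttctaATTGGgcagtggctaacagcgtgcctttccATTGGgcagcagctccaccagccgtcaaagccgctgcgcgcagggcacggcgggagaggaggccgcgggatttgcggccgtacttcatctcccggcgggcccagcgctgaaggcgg
Rbm10: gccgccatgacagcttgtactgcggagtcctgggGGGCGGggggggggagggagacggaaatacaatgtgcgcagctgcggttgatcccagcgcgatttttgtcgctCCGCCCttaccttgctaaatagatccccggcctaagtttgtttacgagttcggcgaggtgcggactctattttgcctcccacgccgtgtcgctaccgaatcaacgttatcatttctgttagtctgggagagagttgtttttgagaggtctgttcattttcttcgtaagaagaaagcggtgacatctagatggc
The motifs were searched on both strands and do not overlap one another in these windows. CCAAT, bound by NF-Y, was present 1 time before Rbm5, 2 times before Rbm6 and 0 times before Rbm10, and 37.4% of the 32851 promoter windows of that length in the table held it. GCCATNTTG, bound by YY1, was present 1 time, just after the start site of Rbm5, and in 2.51% of all windows. GGGCGG, bound by SP and KLF factors, was present 2 times before Rbm10 and in 35.7% of all windows. CACGTG, bound by MYC with MAX, was in none of the 3 windows and in 7.15% of all windows, and CCGGAAG, bound by ETS factors, was in none of the 3 and in 8.86% of all. A match or its absence is a description of these letters only.

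The libraries held 11778 (MLL-AF9, KO), 13177 (MLL-AF9, WT), 13708 (c-Kit+, KO) and 12948 (c-Kit+, WT) cells after filtering, with 101255178, 93004538, 101106754 and 93778544 UMIs. Median UMIs per cell lay between 5352 and 7420.5, mitochondrial UMIs between 0.687% and 1.02%, and each pair of libraries shared 44 to 69 cell barcodes. Cells of the myeloid gate, which showed UMIs of at least 3 of 15 myeloid markers, made up 95.8% and 96.3% of the MLL-AF9 libraries labelled KO and WT and 74.1% and 77.2% of the c-Kit+ libraries labelled KO and WT. Kit, the gene of the receptor in the c-Kit+ label, had 43.9 and 45.8 CPM (the gene's UMIs scaled to the same total in every library) in the c-Kit+ libraries labelled KO and WT and a UMI in 18.1% and 17.3% of their cells. In the MLL-AF9 libraries labelled KO and WT it had 28.4 and 61.3 CPM. Cells led by secondary granule genes, a late step of neutrophil formation, made up 37.0% and 39.2% of the c-Kit+ libraries labelled KO and WT, and the Kit level of these libraries lay between those of the MLL-AF9 libraries. Where KO or WT stands in brackets after a value, it is the label of the library.

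Rbm5 transcript was present in both libraries labelled KO. Its level was 115.5 CPM (95% counting interval 113 to 118) in the MLL-AF9 library labelled KO and 160.5 CPM (158 to 163) in that labelled WT. In c-Kit+ cells it was 89.6 CPM (87.7 to 91.4) in the library labelled KO and 75.5 CPM (73.7 to 77.3) in that labelled WT. Rbm5 was therefore lower in the library labelled KO among MLL-AF9 cells and higher in the library labelled KO among c-Kit+ cells. The sources used here do not say which part of Rbm5 was deleted, and tags primed at the poly(A) tail need not lie in it, so these counts check neither label. All intervals cover counting error only. With 1 library per group no difference could be tested between conditions, and fewer cells of a type and less RNA per cell cannot be told apart in a library sum.

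Rbm6, the neighbour on chromosome 9, had 91.7 CPM in the MLL-AF9 library labelled KO and 161.9 CPM in that labelled WT. In c-Kit+ cells it had 114.03 CPM in the library labelled KO and 119.1 CPM in that labelled WT. Rbm10, the X-linked paralog, had 19.99 CPM in the MLL-AF9 library labelled KO and 36.2 CPM in that labelled WT. Its c-Kit+ levels were 26.4 CPM in the library labelled KO and 27.1 CPM in that labelled WT. Both paralogs were thus lower in the library labelled KO in MLL-AF9 cells and close between the c-Kit+ libraries. All 3 members had their highest level in the MLL-AF9 library labelled WT. The lowest was in the c-Kit+ library labelled WT for Rbm5, and in the MLL-AF9 library labelled KO for Rbm6 and Rbm10.

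**Figure D1:**
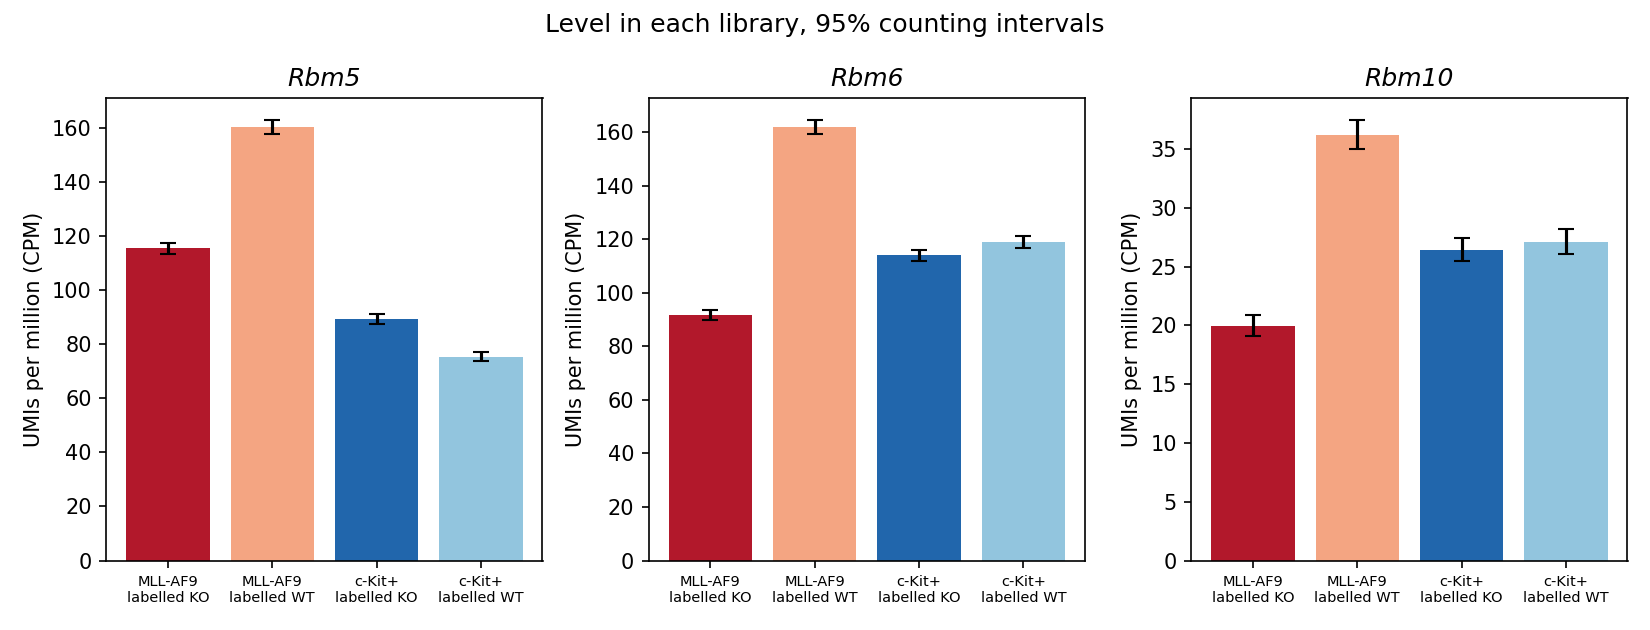
Bars give the level (CPM, from 0) of each member in the 4 libraries, and whiskers are 95% Poisson intervals, which cover counting error only. Each member is highest in the MLL-AF9 library labelled WT, and Rbm5 alone has a higher bar in the c-Kit+ library labelled KO (89.6 CPM) than in that labelled WT (75.5 CPM) with intervals apart.

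In MLL-AF9 cells the level in the library labelled KO over that in the library labelled WT was 0.72 (0.703 to 0.738) for Rbm5. The paralogs had lower ratios, 0.566 (0.552 to 0.581) in the case of Rbm6 and 0.552 (0.522 to 0.583) in that of Rbm10. Rbm6 and Rbm10 were past a 1.5-fold difference and Rbm5 was not. Of the 9901 genes that averaged at least 5 CPM, 44.6% were past 1.5-fold in either direction, 35.1% lower and 9.49% higher, so a member past it is no result by itself in this pair of libraries. Over all genes the log2 ratio had a median of -0.38. Relative to that median, Rbm5 (log2 ratio -0.47) differed by -0.09, Rbm6 (-0.81) by -0.43 and Rbm10 (-0.83) by -0.44. A lower log2 ratio than that of Rbm5 was seen in 43.5% of genes, than that of Rbm6 in 21.0% and than that of Rbm10 in 20.1%. With size factors from the median ratio in place of CPM, which moved the median of all genes to -0.04, the log2 ratios were -0.12, -0.46 and -0.49, and no member was past 1.5-fold. The split of genes past 1.5-fold also depended on that choice, since 78.7% of them were lower in the library labelled KO by CPM and 48.5% with size factors.

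Among c-Kit+ cells Rbm5 in the library labelled KO was 1.19 times (1.15 to 1.22) its level in that labelled WT. The same ratio was 0.958 (0.933 to 0.983) in the case of Rbm6 and 0.975 (0.923 to 1.03) in that of Rbm10. No member was past 1.5-fold, and 0.46% of 9555 genes were. Rbm5 had a log2 ratio of 0.24, above that of 96.2% of genes, whose median was -0.01 with an SD of 0.15 across genes. Rbm6 (-0.06) and Rbm10 (-0.04) lay inside that spread.

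Between the WT libraries, Rbm5 was 2.13 times (2.07 to 2.19) as high in the MLL-AF9 library as in the c-Kit+ library. Rbm6 was 1.36 times (1.33 to 1.39) and Rbm10 1.34 times (1.27 to 1.41) as high. Rbm5 was past 1.5-fold and the paralogs were not, against 44.1% of 10036 genes past it (33.0% higher and 11.1% lower in the MLL-AF9 library by CPM, 18.2% and 21.7% with size factors). Relative to the median log2 ratio of all genes (0.28), Rbm5 differed by 0.79, Rbm6 by 0.16 and Rbm10 by 0.12. Between the libraries labelled KO, MLL-AF9 over c-Kit+, the ratios were 1.29 (1.25 to 1.33) for Rbm5, 0.804 (0.782 to 0.827) for Rbm6 and 0.756 (0.713 to 0.801) for Rbm10. In that pair 48.3% of 9668 genes were past 1.5-fold. These are library sums of unlike lineage mix, and the myeloid gate gave other values. Within it, MLL-AF9 over c-Kit+ in the WT libraries was 2.36 (2.29 to 2.44) for Rbm5, 1.98 (1.92 to 2.04) for Rbm6 and 1.71 (1.61 to 1.82) for Rbm10. The 1.5-fold limit thus did not set Rbm5 apart from its paralogs there. The share of all genes past 1.5-fold within the gate is not given here, so passing it there is no result by itself. Between the libraries labelled KO the myeloid ratios were 1.42 (1.38 to 1.46) for Rbm5, 1.19 (1.15 to 1.23) for Rbm6 and 0.934 (0.873 to 0.999) for Rbm10, so Rbm6 lay on the other side of 1 from its library sum. Erythroid cells of the libraries labelled KO had 0.714 (0.609 to 0.833) for Rbm5 and 0.315 (0.269 to 0.367) for Rbm6, and those of the WT libraries 1.35 (1.05 to 1.70) and 0.540 (0.425 to 0.677). In the libraries labelled KO, haemoglobin took 36.8% of erythroid UMIs in MLL-AF9 and 6.29% in c-Kit+ cells. Without haemoglobin UMIs, a version added after seeing the data, Rbm5 was 127.1 CPM (MLL-AF9) and 120.1 CPM (c-Kit+) there, so it was no longer lower in MLL-AF9. That MLL-AF9 value rests on 183 UMIs in 209 cells. No interval was computed on this scale, so an order of these close values is not read. Rbm6 stayed lower in MLL-AF9, at 120.1 CPM against 257.5 CPM. In WT libraries Rbm5 was 153.2 CPM against 99.7 CPM, and Rbm6 155.2 CPM against 251.9 CPM. These MLL-AF9 over c-Kit+ comparisons share libraries with those above.

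The ratio of one member to another within a library needs no scaling to library size. Rbm5 had 1.26 UMIs for each Rbm6 UMI in the MLL-AF9 library labelled KO and 0.991 in that labelled WT. It had 0.785 in the c-Kit+ library labelled KO and 0.634 in that labelled WT. The Rbm5 to Rbm6 ratio was thus higher by a like factor in the library labelled KO of both cell types, 1.27 (1.23 to 1.32) in MLL-AF9 and 1.24 (1.19 to 1.29) in c-Kit+ cells. Against Rbm10 the factors were 1.30 (1.23 to 1.39) in MLL-AF9 and 1.22 (1.14 to 1.30) in c-Kit+ cells. Rbm6 against Rbm10 gave 1.03 (0.966 to 1.09) in MLL-AF9 and 0.983 (0.925 to 1.04) in c-Kit+ cells, with both intervals spanning 1. UMIs of different genes are not on a scale per length, so only the change of these ratios between libraries is read. Against the median log2 ratio of all genes, Rbm5 differed by -0.09, Rbm6 by -0.43 and Rbm10 by -0.44 in MLL-AF9 cells. In c-Kit+ cells these differences were 0.25, -0.05 and -0.03. The paralogs thus lay furthest from the median in MLL-AF9 cells and Rbm5 in c-Kit+ cells. The SD of log2 ratios across genes was 0.80 in MLL-AF9 and 0.15 in c-Kit+ cells. How often other pairs of genes had such factors was not tested.

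**Figure D2:**
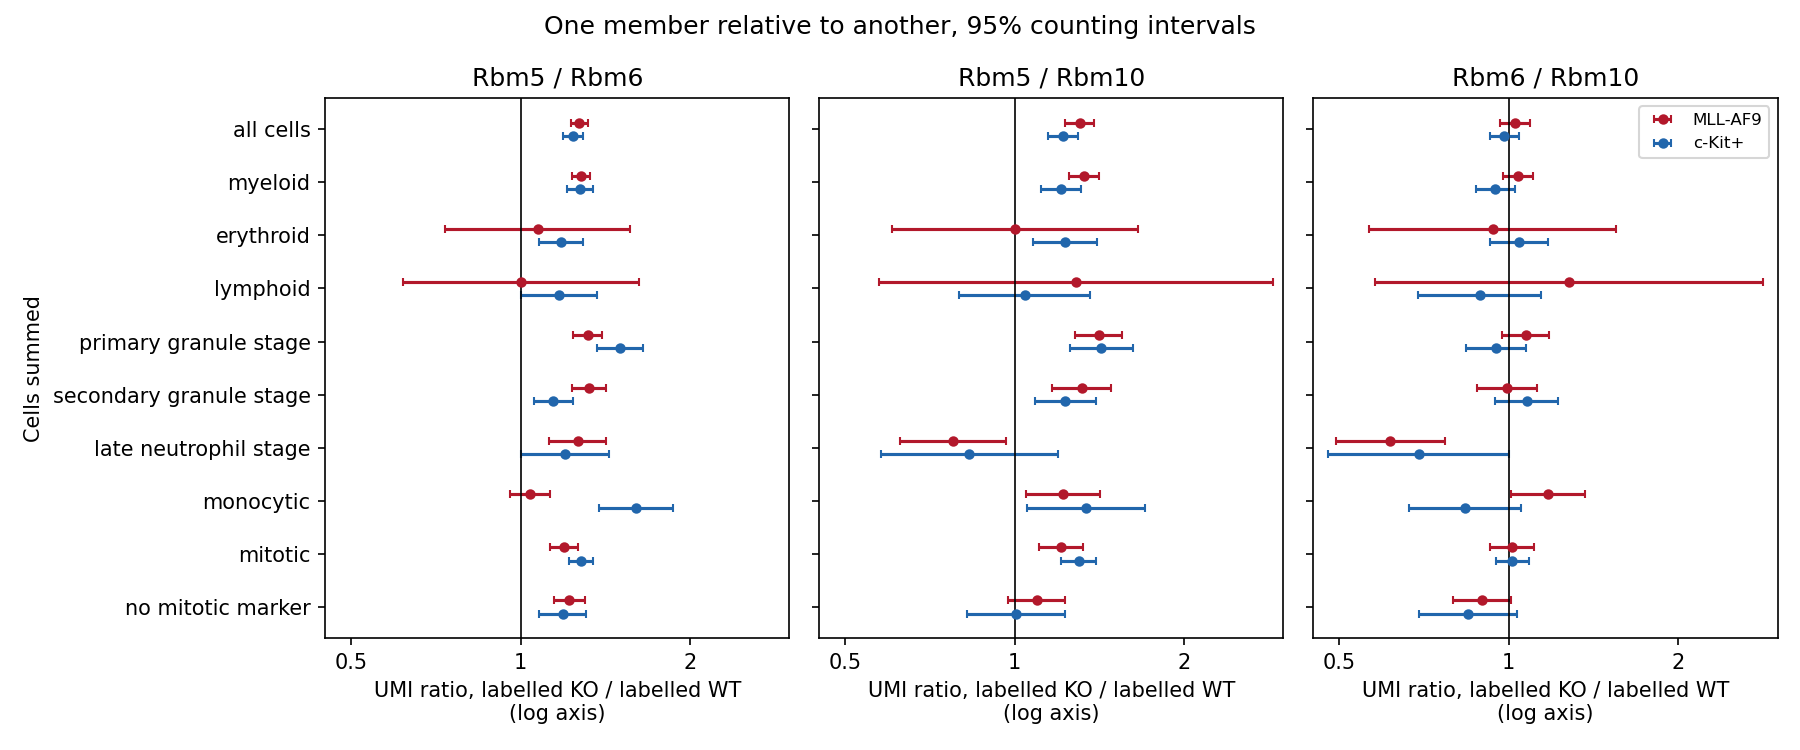
Points give the UMI ratio of one member to another in the library labelled KO over the same ratio in the library labelled WT (log axis), by the cells summed, and whiskers are 95% counting intervals. Over all cells the first panel (Rbm5 to Rbm6) lies at 1.27 in MLL-AF9 and 1.24 in c-Kit+ cells, and the third (Rbm6 to Rbm10) lies at 1.03 and 0.983.

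The Rbm5 to Rbm6 factor was seen in most myeloid stages and not in all. In the myeloid gate as a whole it was 1.28 (1.23 to 1.33) in MLL-AF9 and 1.28 (1.21 to 1.34) in c-Kit+ cells. Among cells led by primary granule genes (Mpo, Elane and others) it was 1.32 (1.24 to 1.40) in MLL-AF9 and 1.501 (1.37 to 1.65) in c-Kit+ cells. Among monocytic cells it was 1.60 (1.38 to 1.87) in c-Kit+ cells but 1.04 (0.958 to 1.13) in MLL-AF9 cells. Erythroid cells gave 1.18 (1.08 to 1.29) in c-Kit+ cells and 1.07 (0.734 to 1.57) in MLL-AF9 cells, where only 209 cells from the library labelled KO and 64 from that labelled WT passed the gate. Against Rbm10, late neutrophil stage cells (scored on genes such as Cxcr2 and Retnlg) went the other way, with a factor for Rbm5 of 0.778 (0.627 to 0.964) in MLL-AF9 and 0.831 (0.578 to 1.19) in c-Kit+ cells. Rbm6 against Rbm10 was also below 1 at that stage, at 0.616 (0.493 to 0.770) in MLL-AF9 and 0.692 (0.478 to 1.002) in c-Kit+ cells. In monocytic cells it was 1.17 (1.01 to 1.36) in MLL-AF9 and 0.835 (0.664 to 1.05) in c-Kit+ cells. The late stage order was thus not one of Rbm5 alone.

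Within marker gates the members had different lineage patterns. The erythroid gate used 15 markers such as Klf1, and the lymphoid gate 16 such as Cd79a and Cd3e. Rbm5 had 116.6 CPM in the myeloid gate of the MLL-AF9 library labelled KO, against 159.98 CPM in that labelled WT. In c-Kit+ myeloid cells it had 82.1 CPM in the library labelled KO, against 67.7 CPM in that labelled WT. Myeloid cells, which were most cells of each library, thus had the directions seen in the library sums, as did erythroid and lymphoid cells. Erythroid cells of the MLL-AF9 libraries had 80.4 CPM of Rbm5 in the library labelled KO and 127.6 CPM in that labelled WT. In c-Kit+ erythroid cells the level was 112.6 CPM in the library labelled KO and 94.8 CPM in that labelled WT. Lymphoid cells had 120.96 CPM (KO) and 194.4 CPM (WT) in the MLL-AF9 libraries and 128.5 CPM (KO) and 117.5 CPM (WT) in the c-Kit+ libraries. This gate held 5 B and 62 T or NK cells in the MLL-AF9 library labelled KO and 59 and 67 in that labelled WT. The c-Kit+ libraries had 1060 and 113 (KO) and 1072 and 89 (WT), so lymphoid levels compare unlike mixes. T or NK cells alone had 112.8 CPM (KO) and 161.1 CPM (WT) of Rbm5 in MLL-AF9. The interval of that ratio (0.444 to 1.0999) spanned 1. Rbm5 was highest in the lymphoid cells of the MLL-AF9 library labelled WT and lowest in the myeloid cells of the c-Kit+ library labelled WT. Of the 12 levels ranked from highest to lowest, the interval of Rbm5 was apart from that of the next at 3 steps.

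Rbm6 differed between lineages far more in the c-Kit+ libraries. Its level was 77.0 CPM (KO) and 81.0 CPM (WT) in c-Kit+ myeloid cells. Erythroid cells had 241.3 CPM (KO) and 239.4 CPM (WT), and lymphoid cells 265.7 CPM (KO) and 284.7 CPM (WT). Erythroid and lymphoid cells of the c-Kit+ libraries thus stood well above myeloid cells, whichever genotype label the library had. In the MLL-AF9 libraries Rbm6 had 91.4 CPM (KO) and 160.5 CPM (WT) in myeloid cells. It had 75.97 CPM (KO) and 129.3 CPM (WT) in erythroid cells and 145.7 CPM (KO) and 234.9 CPM (WT) in lymphoid cells. Erythroid cells were therefore the lowest of the 3 gates for Rbm6 in the MLL-AF9 libraries. Haemoglobin took 36.8% of the UMIs of erythroid cells in the MLL-AF9 library labelled KO and 16.7% in that labelled WT, against 6.29% (KO) and 4.97% (WT) in the c-Kit+ libraries. With haemoglobin UMIs left out, a version added after seeing the data, Rbm6 in erythroid cells was 120.1 CPM (KO) and 155.2 CPM (WT) in MLL-AF9 and 257.5 CPM (KO) and 251.9 CPM (WT) in c-Kit+ libraries. On that scale erythroid cells of the MLL-AF9 library labelled KO were above its myeloid cells for Rbm6 (91.6 CPM). For Rbm5 they had 127.1 CPM against 116.8 CPM. Erythroid against myeloid cells of the library labelled WT had 155.2 CPM against 160.6 CPM for Rbm6 and 153.2 CPM against 160.1 CPM for Rbm5. These WT erythroid values rest on 77 and 76 UMIs in 64 cells. No interval was computed on this scale, so an order is not read from the Rbm5 values or from those of the library labelled WT.

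Rbm10 was higher in erythroid than in myeloid cells of all 4 libraries. In the MLL-AF9 libraries it had 31.6 CPM (KO) and 50.4 CPM (WT) in erythroid cells, and 19.6 CPM (KO) and 35.8 CPM (WT) in myeloid cells. In the c-Kit+ libraries it had 51.0 CPM (KO) and 52.8 CPM (WT) in erythroid cells, and 21.03 CPM (KO) and 20.96 CPM (WT) in myeloid cells. Lymphoid cells had 27.5 CPM (KO) and 56.7 CPM (WT) in MLL-AF9 and 37.6 CPM (KO) and 35.8 CPM (WT) in c-Kit+ libraries. The lymphoid value of the MLL-AF9 library labelled KO rests on 10 UMIs in 69 cells. The erythroid value of the MLL-AF9 library labelled WT rests on 30 UMIs in 64 cells. Its interval (34.0 to 71.9 CPM) overlapped that of the myeloid cells there (34.6 to 37.1 CPM).

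**Figure D3:**
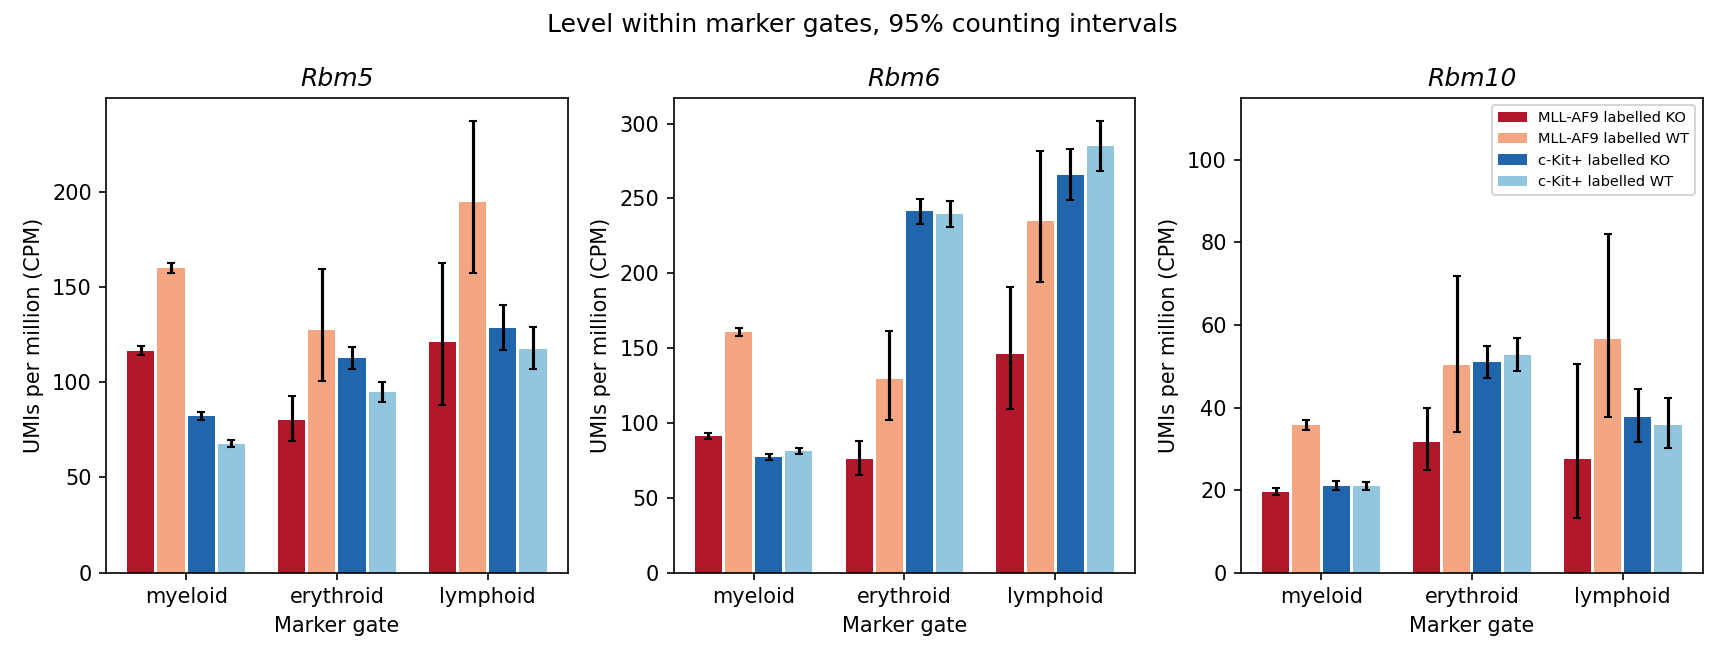
Bars give each member's level (CPM, from 0) in cells of the myeloid, erythroid and lymphoid gates of the 4 libraries, with 95% Poisson intervals. Rbm6 in c-Kit+ cells reaches 241.3 and 239.4 CPM in erythroid cells of the libraries labelled KO and WT, against 77.0 and 81.0 CPM in myeloid cells.

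The lineages can be set against each other inside each library, which gives 4 differences per member, 1 from each condition. For 5 such contrasts and 3 members, 15 in all, an exact two-sided sign-flip permutation test over the 4 libraries cannot give a p below 0.125, so none could pass. The libraries are not replicates of a condition, and the share of all genes going the same way is not given here. Agreement in sign is thus a description only. Secondary granule markers took 77160 CPM (KO) and 83237 CPM (WT) of c-Kit+ myeloid cells, against 2048 CPM (KO) and 1469 CPM (WT) of lymphoid cells. Their part in the contrasts was not tested. Lymphoid over myeloid was above 0 in 4 of 4 libraries for each member, with a mean log2 difference of 0.44 ± 0.33 for Rbm5, 1.197 ± 0.68 for Rbm6 and 0.67 ± 0.15 for Rbm10 (SD over 4 libraries, exact permutation p = 0.125, adjusted 0.17). For Rbm5 the lymphoid and myeloid intervals overlapped in MLL-AF9, at 87.9 to 162.4 against 114.5 to 118.8 CPM (KO) and 157.5 to 237.4 against 157.4 to 162.6 CPM (WT). For Rbm10 they overlapped in the MLL-AF9 library labelled KO, at 13.2 to 50.6 against 18.8 to 20.5 CPM. The lymphoid gate also mixed B with T or NK cells in unlike parts. Erythroid over myeloid was 0.92 ± 0.41 for Rbm10, above 0 in 4 of 4 (exact permutation p = 0.125, adjusted 0.17). It was above 0 in 2 of 4 libraries for Rbm5 and Rbm6, namely both c-Kit+ libraries. Cells from the late neutrophil stage had less Rbm10 than cells of the primary granule stage in 4 of 4 libraries, with a mean log2 difference of -0.97 ± 0.33, and less Rbm6 in 4 of 4 (-0.38 ± 0.28). Rbm5 did not share that order: it was higher in late neutrophil stage cells in 3 of 4 libraries and lower in the MLL-AF9 library labelled KO, where it had 106.2 CPM in late and 129.3 CPM in primary granule stage cells.

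Mitotic cells, those with UMIs of 3 or more of Mki67, Top2a, Cdk1 and other division genes, separated Rbm5 from Rbm10. Within the myeloid gate, mitotic cells had 26.7 CPM of Rbm10 (KO) and 43.3 CPM (WT) in MLL-AF9 and 23.7 CPM (KO) and 24.8 CPM (WT) in c-Kit+ libraries. Cells with no mitotic marker had 15.95 CPM (KO) and 26.96 CPM (WT) in MLL-AF9 and 12.4 CPM (KO) and 10.7 CPM (WT) in c-Kit+ libraries. Rbm10 was higher in mitotic cells in 4 of 4 libraries, by a mean log2 difference of 0.85 ± 0.22, and Rbm5 was lower in 4 of 4, by -0.34 ± 0.19. The mean for Rbm6 was 0.15 ± 0.16, above 0 in 4 of 4. Mitotic cells were deeper, and the level of Rbm5 moved with depth, so the contrast was repeated at like depth. Among cells with 4000 to 8000 UMIs Rbm10 was 1.62 to 2.49 times as high in mitotic cells over the 4 libraries, and Rbm5 was 0.805 to 1.06 times as high, lower in 3 of 4. Among cells with 8000 to 16000 UMIs the ranges were 1.03 to 1.58 for Rbm10 and 0.607 to 0.839 for Rbm5, but Rbm6 was higher in mitotic cells in only 2 of 4. In the c-Kit+ libraries those deeper cells without a mitotic marker were few, 67 (KO) and 90 (WT).

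Across strata the KO over WT ratio kept its side of 1 in MLL-AF9 cells for every member. It was below 1 in 4 of 4 gate classes (the 3 gates and the ungated cells), 4 of 4 myeloid stages, 5 of 5 depth bins and in mitotic and non-mitotic cells alike. By CPM of all UMIs, the 95% interval spanned 1 in these strata only for Rbm10 in the lymphoid gate. In T or NK cells alone, which are not among these strata, it spanned 1 for Rbm5 as well. The erythroid ratios depended on haemoglobin, which took 36.8% (KO) and 16.7% (WT) of UMIs there. Their log2 values were -0.66 for Rbm5, -0.76 for Rbm6 and -0.66 for Rbm10. Without haemoglobin UMIs they shrank to -0.27, -0.37 and -0.27, and no interval was computed on that scale. The ratio of Rbm5 differed in size. It was 0.846 (0.813 to 0.881) at the primary granule stage, 0.773 (0.737 to 0.811) at the secondary granule stage, 0.648 (0.611 to 0.687) in monocytic cells and 0.573 (0.532 to 0.616) at the late neutrophil stage. Rbm5 thus lay closest to equality where primary granule genes led, without a median of all genes at each stage to set beside it. Rbm6 was 0.643 (0.616 to 0.671) at the primary granule stage and 0.454 (0.413 to 0.498) at the late neutrophil stage, and Rbm10 was 0.60 (0.549 to 0.655) and 0.736 (0.599 to 0.907) at these stages. Cells with UMIs of 3 or more stem and progenitor genes such as Kit, Cd34 and Flt3 had a ratio of 0.781 (0.698 to 0.872) for Rbm5, 0.731 (0.652 to 0.818) for Rbm6 and 0.694 (0.541 to 0.882) for Rbm10, from 209 cells labelled KO and 787 labelled WT. These cells were deep, with median UMIs of 14433 (KO) and 10124 (WT), against 7420.5 and 5946 in all cells. Their stem and progenitor markers took 1346 CPM (KO) and 1411 CPM (WT), against 1260 CPM and 1069 CPM in all cells. The class is thus not read as a stem-like population, and the part of depth in its ratios was not tested.

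Depth moved with the Rbm5 level in 3 of the 4 libraries. In the MLL-AF9 library labelled WT Rbm5 had 317.9 CPM in cells of 1000 to 2000 UMIs, 216.1 CPM at 2000 to 4000, 166.4 CPM at 4000 to 8000, 143.3 CPM at 8000 to 16000 and 145.8 CPM at 16000 or more. In the MLL-AF9 library labelled KO the same bins had 133.2, 107.2, 108.96, 119.4 and 117.5 CPM. In the c-Kit+ libraries they had 135.9, 106.8, 95.2, 81.6 and 85.8 CPM (KO) and 124.3, 93.1, 80.2, 64.7 and 76.1 CPM (WT). The shallowest cells thus had the highest level in every library, by least in the MLL-AF9 library labelled KO. The KO over WT ratio of Rbm5 was 0.419 (0.334 to 0.52) in the shallowest bin and 0.806 (0.759 to 0.855) in the deepest. From the shallowest bin to the deepest, the ratio of Rbm6 was 0.727, 0.435, 0.485, 0.617 and 0.649 and that of Rbm5 0.419, 0.496, 0.655, 0.833 and 0.806, so Rbm6 differed in course in the shallowest bin and was likewise higher in deeper cells from 2000 UMIs upward. The shallowest bin held 514 cells of the library labelled KO and 1190 of that labelled WT. The part of cell type in this dependence was not tested.

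The ratio of Rbm5 in c-Kit+ cells, KO over WT, was above 1 in 4 of 4 gate classes, 4 of 4 myeloid stages and 5 of 5 depth bins. Its interval was above 1 in 3 of 4 gate classes, with the exception of lymphoid cells at 1.09 (0.959 to 1.25). It was 1.41 (1.25 to 1.59) in monocytic cells, 1.36 (1.26 to 1.46) at the primary granule stage, 1.15 (1.09 to 1.21) at the secondary granule stage and 1.13 (0.9998 to 1.27) at the late neutrophil stage. Basophil or mast cells, marked by genes such as Cpa3 and Mcpt8, had 1.51 (1.198 to 1.90), and stem and progenitor cells 1.21 (1.08 to 1.36). Plasmacytoid dendritic cells were the exception in direction, at 0.873 (0.626 to 1.22), with 104 cells labelled KO and 89 labelled WT. The ratio of Rbm6 lay between 0.821 and 1.07 in depth bins and between 0.879 and 1.003 in stages, and was 0.674 (0.540 to 0.842) in megakaryocytic cells (67 labelled KO and 51 labelled WT). Its lowest value in a depth bin, 0.821 (0.784 to 0.86), was in cells of 16000 or more UMIs, where Rbm10 was at 0.845 (0.77 to 0.928). Rbm10 was at 1.38 (1.09 to 1.74) in cells of 2000 to 4000 UMIs and at 1.36 (0.948 to 1.94) at the late neutrophil stage.

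**Figure D4:**
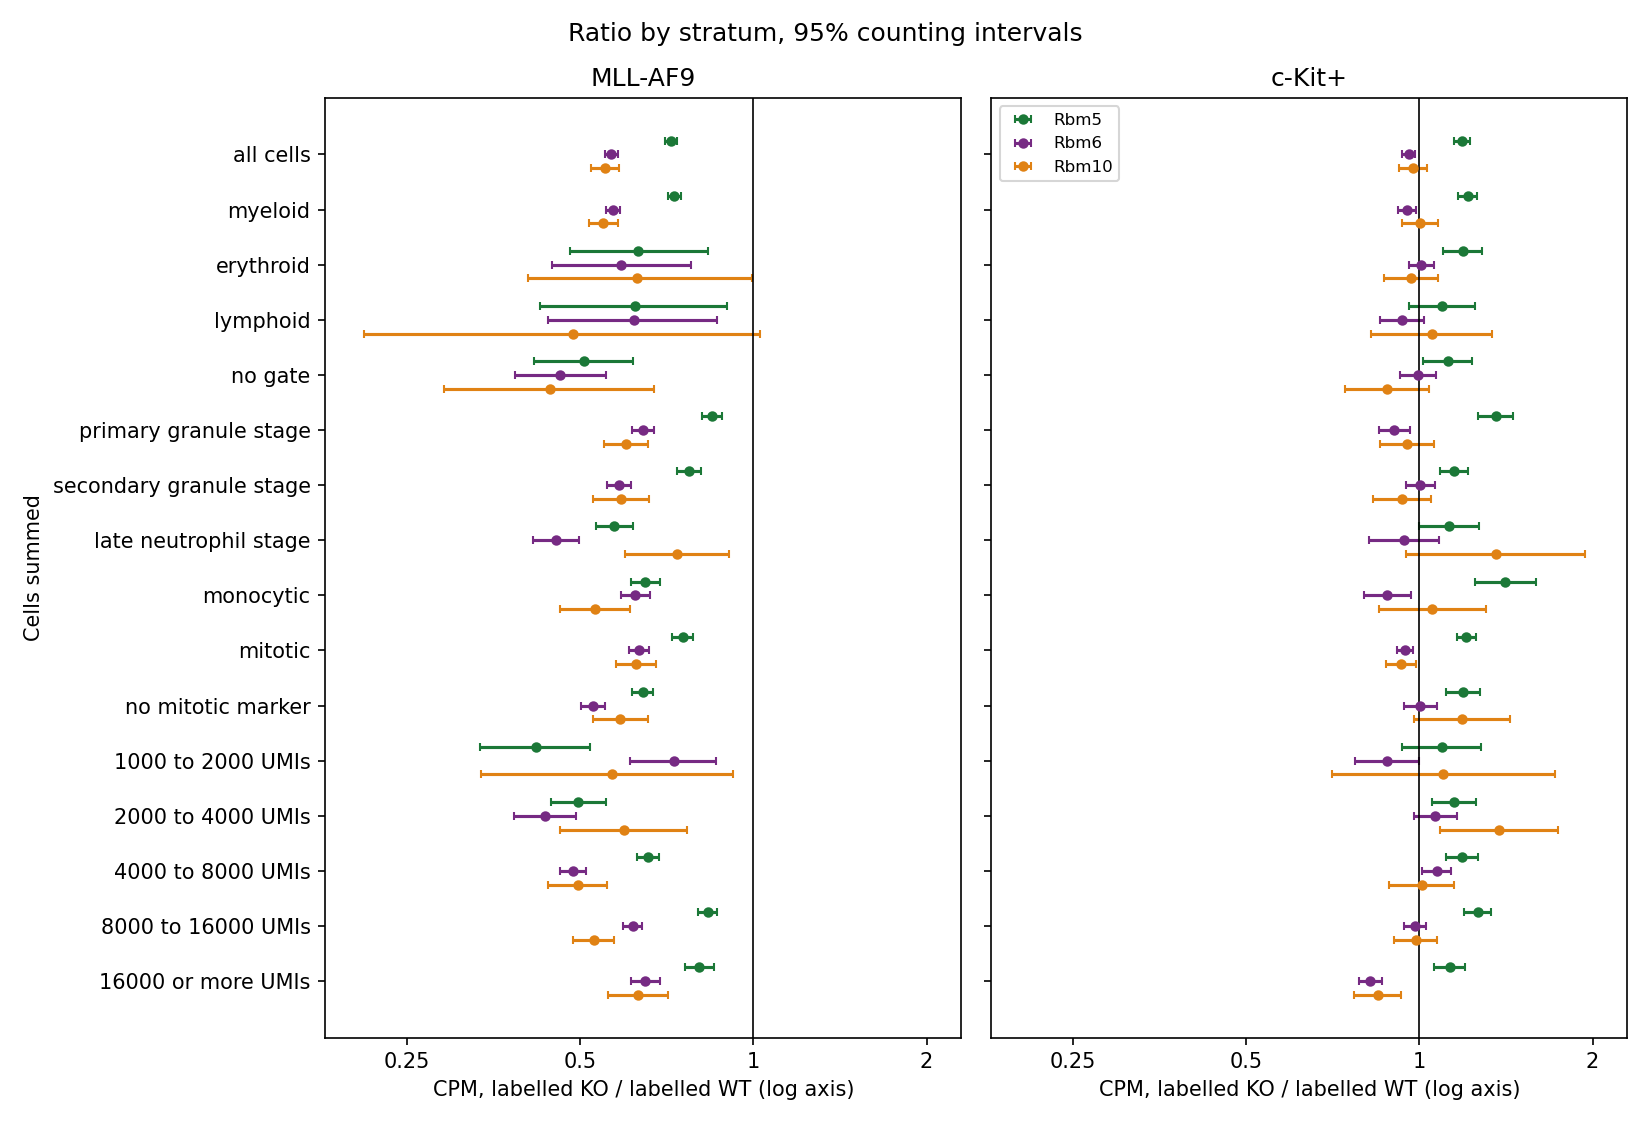
Points give the level in the library labelled KO over that in the library labelled WT (log axis) for each member, by the cells summed, and whiskers are 95% counting intervals. All points lie left of 1 in MLL-AF9 cells, and those of Rbm5 lie right of 1 in c-Kit+ cells.

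Single cells held few UMIs of the members. An Rbm5 UMI was seen in 54.3% (53.4 to 55.2, exact Clopper-Pearson) of cells of the MLL-AF9 library labelled KO and in 60.4% of that labelled WT, and in 42.03% (KO) and 36.6% (WT) of c-Kit+ cells. After thinning every cell to 2000 UMIs the shares were 19.7% (KO) and 28.1% (WT) in MLL-AF9 and 16.9% (KO) and 14.5% (WT) in c-Kit+ cells, with 514 (KO), 1190 (WT), 1781 (KO) and 1432 (WT) shallower cells left out of these libraries. The thinned shares of Rbm5 followed the order of its CPM. Thinned shares were 15.0% (KO) and 25.9% (WT) in MLL-AF9 and 18.2% (KO) and 18.1% (WT) in c-Kit+ cells for Rbm6. For Rbm10 they were 3.42% (KO) and 6.85% (WT) in MLL-AF9 and 4.06% (KO) and 4.17% (WT) in c-Kit+ cells. At that depth 66.3% (KO) and 50.01% (WT) of MLL-AF9 cells and 65.7% (KO) and 67.7% (WT) of c-Kit+ cells had no UMI of any member, so a cell without one is not a cell without the gene. No cell type here is known to lack Rbm5, so no share from free RNA can be set beside these.

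Other genes of the families give the setting of the members. The RBM family list holds every symbol of Rbm with a number, 32 genes, of which 22 beside the members averaged at least 5 CPM in MLL-AF9 cells. Of these, 2 were past 1.5-fold higher in the library labelled KO and 5 lower, where 9.49% of all genes were higher and 35.1% lower, with a median log2 ratio of -0.28 against -0.38 for all genes. With size factors the median of the family changed sign, to 0.06, and 3 were past 1.5-fold higher and 1 lower. Rbm39, a splicing factor related to U2AF, had 1011.9 CPM in the library labelled KO and 586.1 CPM in that labelled WT, Rbm38, a p53 target that binds mRNA, had 75.8 CPM (KO) and 46.8 CPM (WT), and Rbm3, a cold-induced gene, 787.1 CPM (KO) and 647.7 CPM (WT). At the low end stood Rbm12 with 7.07 CPM (KO) and 15.99 CPM (WT), Rbm43 with 14.98 CPM (KO) and 28.3 CPM (WT), and Rbm47, which with APOBEC1 edits RNA, with 35.4 CPM (KO) and 65.2 CPM (WT). Rbm6 and Rbm10 lay just above these, and Rbm5 was the eighth from the lowest when set among the other 22.

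In c-Kit+ cells 0 of the 22 other RBM family genes were past 1.5-fold, as were 0.46% of all genes, and their log2 ratios ran between -0.15 (Rbm38) and 0.12 (Rbm19). Rbm5 at 0.24 was above all 22. It was likewise above all 18 other G-patch genes, of which the highest was Gpatch11 at 0.12 and the lowest Gpatch2l at -0.20. It was also above all 27 early spliceosome partners, of which the highest was the Sm protein gene Snrpd2 at 0.11 and the lowest Sf3b4, a U2 snRNP protein gene, at -0.22. Rbm6 and Rbm10 lay inside the range of each list.

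**Figure D5:**
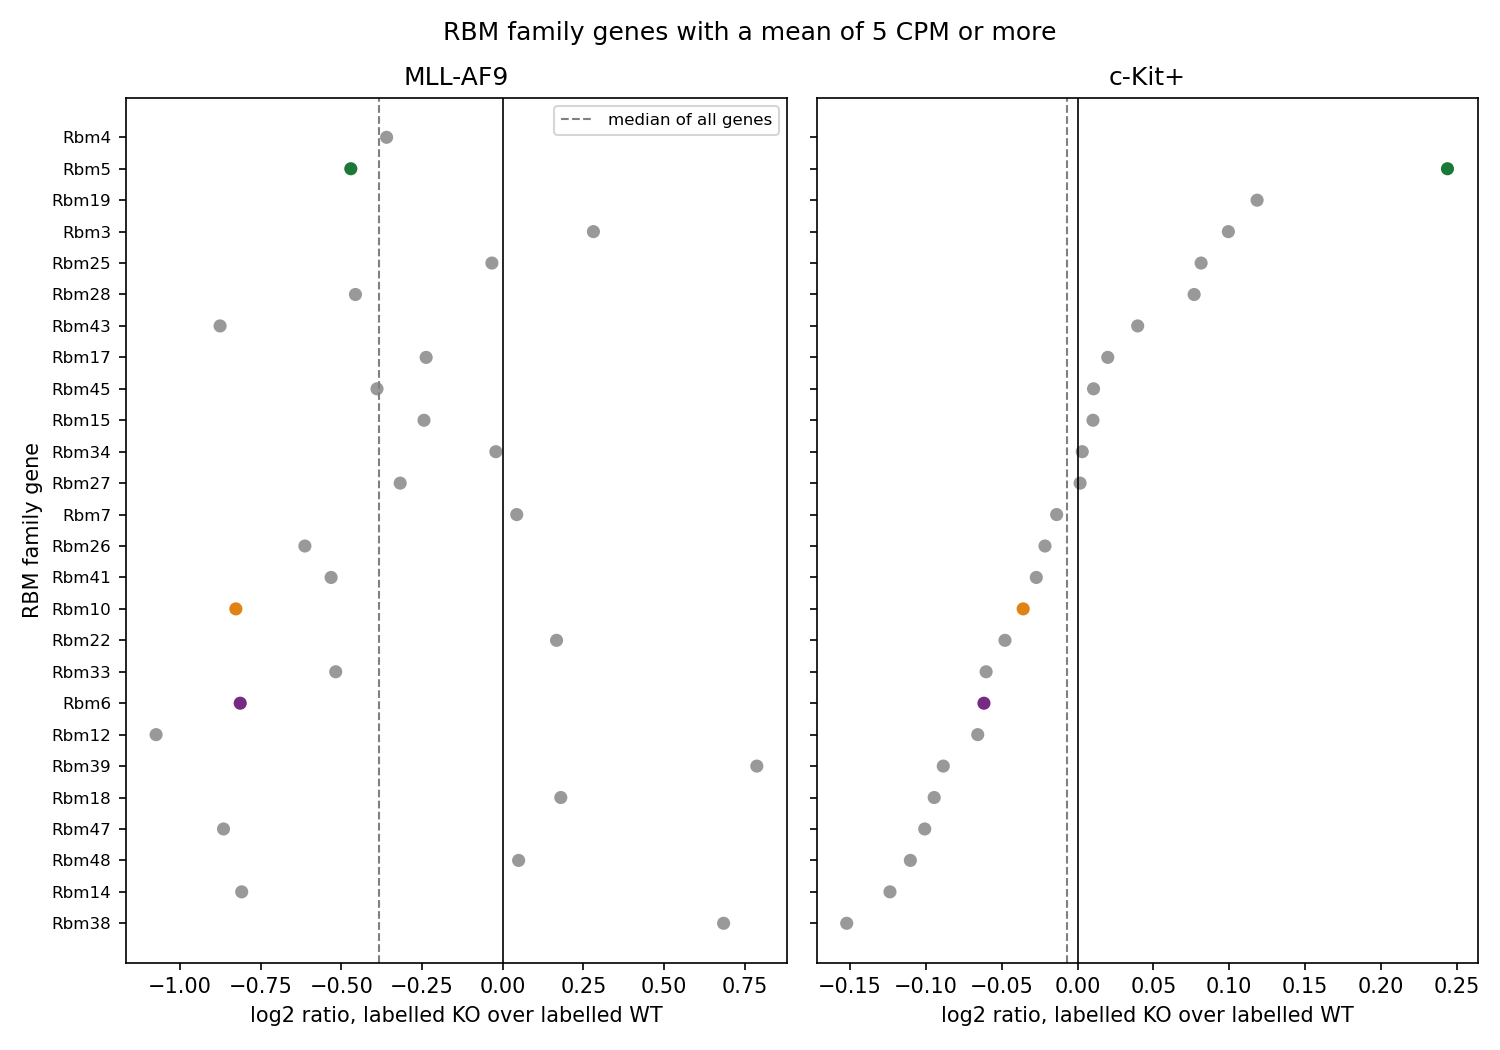
Each point is the log2 ratio, library labelled KO over library labelled WT, of an RBM family gene that averaged at least 5 CPM in that pair, with genes ordered by the c-Kit+ value, members in colour, and a different horizontal scale in each panel. Rbm5 is the point at 0.24 in the c-Kit+ panel, and lies at -0.47 in the MLL-AF9 panel, where the dashed median of all genes is at -0.38.

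In MLL-AF9 cells 0 of 17 other G-patch genes were past 1.5-fold higher and 6 lower, with a median log2 ratio of -0.24, which changed sign to 0.09 with size factors, where 0 were higher and 2 lower. The share lower by CPM was close to the 35.1% of all genes. At the high end stood Tfip11, Gpank1 and Aggf1, with log2 ratios of 0.24, 0.23 and 0.23. Cherp, a U2-associated G-patch protein gene, had 18.3 CPM (KO) and 35.8 CPM (WT), Pinx1, an inhibitor of telomerase, 8.75 CPM (KO) and 17.1 CPM (WT), and Gpatch2 8.68 CPM (KO) and 24.8 CPM (WT). Early spliceosome partners had 0 of 27 higher and 10 lower, beside 9.49% and 35.1% of all genes, with a median of -0.37, close to that of all genes, and 2 higher and 1 lower with a median of -0.01 with size factors. Snrpf and Snrpg, Sm protein genes, had log2 ratios of -0.91 and -0.82, and Puf60 and Sf1, which bind near the 3′ splice site and branch point, 0.46 and 0.39. Cherp, also on this list, was its lowest gene, and Sf3b1, a U2 snRNP protein gene, lay next below these at 0.003. Dhx15, the helicase that RBM5 stimulates, had 93.6 CPM (KO) and 148.6 CPM (WT) in MLL-AF9 cells and 102.02 CPM (KO) and 101.5 CPM (WT) in c-Kit+ cells. Its course over the 4 libraries thus had the MLL-AF9 library labelled WT on top, as for the members. By CPM that library was also past 1.5-fold above the MLL-AF9 library labelled KO for 35.1% of all genes. It was past 1.5-fold above the c-Kit+ library labelled WT for 33.0%. The share of genes with it on top of all 4 is not given here.

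Of the 4 genes whose splicing RBM5, RBM6 or RBM10 is reported to change in human cells, 1 was past 1.5-fold in MLL-AF9 cells, where 44.6% of all genes were. That was Casp2, a caspase gene, with 14.4 CPM (KO) and 32.8 CPM (WT) in MLL-AF9 and 23.4 CPM (KO) and 22.2 CPM (WT) in c-Kit+ cells. Fas, the death receptor gene, had log2 ratios of 0.17 in MLL-AF9 and -0.16 in c-Kit+ cells. Cflar, an inhibitor of death receptor signalling, had -0.18 and -0.09, and Numb, an inhibitor of Notch, 0.07 and -0.23, in the same order. In c-Kit+ cells 0 of the 4 were past 1.5-fold. UMI totals per gene hold no information on which exons were used.

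Of the 10 nearest coding neighbours of Rbm5 and Rbm6, 3 averaged at least 5 CPM. Mon1a, a vesicle trafficking gene, had log2 ratios of -0.74 in MLL-AF9 and 0.11 in c-Kit+ cells, Traip, a ubiquitin ligase gene, -1.14 and 0.02, and Gnai2, a G protein subunit gene, 0.16 and 0.01. In c-Kit+ cells all 3 lay below Rbm5. Around Rbm10, 7 of 10 neighbours were measured in MLL-AF9 cells, of which 0 were past 1.5-fold higher and 3 lower, beside 35.1% of all genes lower, with a median of -0.57 (0 and 1, with a median of -0.25, with size factors). Slc9a7, an ion exchanger gene, was the lowest at -2.02, and Ndufb11, a respiratory complex I gene, the highest at -0.01. Between them lay Cdk16 (-0.73), Rp2 (-0.69), Jade3 (-0.57), Uba1 (-0.42) and Araf (-0.38).

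Some transcripts overlap the members and could share reads with them, since the counting settings for strand and introns are not given in the sources used here. Gm37850, an antisense gene of 780 bases within Rbm5, had 61 UMIs (KO) and 108 UMIs (WT) in MLL-AF9 and 4 UMIs (KO) and 5 UMIs (WT) in c-Kit+ cells. Gm37436 lies within Rbm6 on the same strand and had 239 UMIs (KO) and 386 UMIs (WT) in MLL-AF9 and 469 UMIs (KO) and 423 UMIs (WT) in c-Kit+ cells. Ndufb11 overlaps the start of Rbm10 by 117 bases on the opposite strand and had 255.1 CPM (KO) and 257.2 CPM (WT) in MLL-AF9 and 405.6 CPM (KO) and 379.8 CPM (WT) in c-Kit+ cells. The first pair is small beside the 11700 (KO) and 14927 (WT) Rbm5 UMIs of the MLL-AF9 libraries.

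Genes with the most similar pattern were sought over the 12 strata of library and gate among 6109 genes that averaged at least 20 CPM. The strata share libraries, and the Pearson correlations of log2(CPM + 1) are given as a description. For Rbm5 the leading genes were Fam114a2 (0.93), Lcor (0.92), mt-Atp8, Zkscan3 (both 0.92) and Wdr20 (0.90). For Rbm6 they were Strn3 (0.99), Med1, Slx4ip, Dis3l2 and Ppp4r3a, the last at 0.98. For Rbm10 they were Hnrnpr (0.98), Herc2, Akap8l, Zfp410 and Cramp1, the last at 0.96. The correlations between members were 0.60 for Rbm5 with Rbm6, 0.54 for Rbm5 with Rbm10 and 0.74 for Rbm6 with Rbm10. The leading genes were picked as the highest, so lying below them is no result by itself. In likeness to Rbm5 among the 6109 genes, Rbm6 ranked 728 and Rbm10 1042. For Rbm6, Rbm5 ranked 1640 and Rbm10 962, and for Rbm10, Rbm5 ranked 1541 and Rbm6 608.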

How the data were processed

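The deposited values are whole UMI counts for each gene and barcode of 4 libraries, 1 per group. Cell Ranger 7.1.0 and the mm10 build are named by the submitters' processing notes; the annotation and the barcode selection are not given in the sources used here. The filter on cells asked for at least 500 genes and 1000 UMIs and for 10% mitochondrial UMIs at most. UMIs were summed over kept cells and scaled to CPM, with depths of 93004538 to 101255178 UMIs per library. Ratios are given as such and on the log2 scale with a pseudocount of 1 CPM.

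A gate needs UMIs of 3 or more markers and at least 2 times as many as any other gate; smaller classes such as mitotic cells needed 3 or more of their markers. Myeloid stages were the highest mean z-score, by a scoring rule chosen after seeing the data, and 4.61% to 8.11% of myeloid cells lay within 0.1 of the next stage. Cells with a Scrublet score of 0.25 or more (scanpy 1.11.5; a fixed limit, since the automatic one moved between runs), 4.37% to 4.99%, were kept, since the rule for the members has no doublet step, and removed as an alternative.

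UMI sums have exact Poisson, ratios exact conditional binomial and shares exact Clopper-Pearson 95% intervals, for counting error only. Ratio intervals and thinning were tested on simulated data. The ratios of one member to another, the contrasts within a library and the splits by stage, depth and mitotic markers were added after seeing the data. With 1 library per group there was no test between conditions, and which cultures or animals the libraries came from is not stated. Genes were counted past 1.5-fold among those that averaged at least 5 CPM. The members and lists were chosen with earlier results of these data known. Named genes were the members, Dhx15, Fas, Casp2, Cflar, Numb, the 3 highest and lowest of each long list (in c-Kit+ cells the text gives the end values only), the measured neighbours and the 5 most similar genes. Positions come from GENCODE M21; 51948 of 56941 features had an ID in it. Alternatives were other cell filters, scaling, weights, thinning, pseudocounts and gates. Python 3.11.15, scipy 1.17.1 and numpy 2.4.6 were used.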

Additional observations from a re-analysis of the deposited data

Results flagged for a closer look

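The CPM of Rbm5 was lower in the library labelled KO among MLL-AF9 cells and higher in it among c-Kit+ cells, and the difference was not tested, since each group was 1 library. The log2 ratio in MLL-AF9 minus that in c-Kit+ cells was -0.71 over all cells, -0.73 in the myeloid gate and -0.91 in the erythroid gate. It is not one of Rbm5 alone, since over all cells it was -0.75 for Rbm6 and -0.79 for Rbm10, and in MLL-AF9 cells the median of all genes was -0.38, from which Rbm5 differed by -0.09. Relative to Rbm6 and Rbm10, Rbm5 was higher in the library labelled KO of both cell types. The paralogs lay furthest from the median of all genes in MLL-AF9 cells and Rbm5 in c-Kit+ cells. The erythroid value rests on few MLL-AF9 cells, whose log2 ratio of -0.66 was -0.27 without haemoglobin UMIs, 0.15 thinned and 0.58 with at most 1 marker of another gate. The antisense gene Gm37850, which lies within Rbm5 and is in none of the gene lists, had 0.602 CPM in the MLL-AF9 library labelled KO and 1.16 CPM in that labelled WT, above both c-Kit+ libraries.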

How the results depend on the processing

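No paired analysis was possible because each group was 1 library. Log2 ratios of KO over WT in MLL-AF9 cells stayed below 0 for all 3 members under every alternative run on the library sums. For Rbm5 they were -0.43 with the stricter cell filter, -0.12 with median-ratio size factors, -0.67 with equal weight per cell and -0.61 after thinning. For Rbm6 they were -0.46 with size factors, -0.94 with equal weight and -0.90 thinned, and for Rbm10 -0.49 with size factors, -0.99 thinned and -0.72 with a pseudocount of 5 CPM. In c-Kit+ cells Rbm5 stayed above 0, while Rbm6 was 0.0075 with equal weight and 0.037 thinned, and Rbm10 was 0.080 with equal weight and 0.0044 with equal gate weights. MLL-AF9 over c-Kit+ in WT, with size factors, gave 0.72, 0.086 and 0.059 for Rbm5, Rbm6 and Rbm10. Rbm5 was 1.04 with a pseudocount of 5 CPM and 1.16 with equal gate weights. Rbm6 was 0.40 with the stricter filter, 0.58 with equal weight, 0.58 thinned and 0.73 with equal gate weights, and Rbm10 0.34, 0.74, 0.71 and 0.68 in that order. The log2 factor of Rbm5 over Rbm6 between libraries labelled KO and WT, added after seeing the data, was 0.27 in MLL-AF9 and 0.22 in c-Kit+ cells with equal weight, and 0.18 in c-Kit+ cells thinned; over Rbm10 it was 0.25 and 0.15 with equal weight. With a floor of 25 CPM, 2150 genes were past 1.5-fold in MLL-AF9, 18 in c-Kit+ cells and 2228 between the WT libraries, and with a floor of 1 CPM 80 were in c-Kit+ cells. Small gates of MLL-AF9 cells reversed: erythroid Rbm5 was 0.58 with at most 1 marker of another gate (44 cells labelled KO and 13 labelled WT) and 0.15 thinned, and lymphoid Rbm6 was 0.88 with at most 1 such marker (11 and 44 cells). The cause of these changes was not tested.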
